A study of Mus musculus with 3 samples.

Results

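Sebaceous gland cells were taken from single-cell RNA sequencing of mouse back skin as the cells that passed a gate on transcripts. A cell was a member when Scd1 and Mgst1 together made up at least 0.2% of its transcript molecules (UMIs) and at least 2 of 8 lipid genes (Cidea, Pparg, Soat1, Far2, Awat2, Dgat2, Apoc1, Elovl3) were detected. Members were thus chosen by the measured UMIs of 10 genes and split by 2 more. The gate found 225 members among 8851 kept cells: 62 of 2109 in the P38 library, 104 of 3502 in the 6-month library and 59 of 3240 in the 12-month library. With the same cell limits the study counted as many cells at P38, nearly as many at 12 months, but far fewer at 6 months. Of the 3502 cells kept here at 6 months, 1821 held fewer than 2000 UMIs. Members with at least 0.2% of UMIs from Krt14 and Krt5, the keratins of basal cells, are called early (176 cells), and those below 0.2% mature (49 cells). The samples were 3 libraries of back skin from untreated wildtype mice, 1 per age (postnatal day 38, 6 months and 12 months). By the study's methods the youngest and oldest donors were male and the other female, and the mice carried H2BGFP driven by the Krt14 promoter, by which epithelial cells were sorted to a set ratio of epidermal to follicle cells, while the labels name only dissociated back skin. Hair follicles were described as in catagen in the youngest mouse, largely in anagen in the female, and in a mix of telogen and anagen in the oldest. Age therefore cannot be told apart from sex, hair cycle stage, sort and library, and with 1 library per age no difference between ages has a replicate check.

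The sebaceous gland sits on the upper hair follicle and makes sebum, a mix that includes triglycerides, wax esters, cholesterol and its esters. Its flat outer cells still carry basal keratins and divide, and their progeny move inward, fill with lipid droplets and finally burst into the duct. PPAR gamma (Pparg) drives this programme, stearoyl-CoA desaturase (Scd1) supplies its monounsaturated fatty acids, and Elovl enzymes lengthen the chains.

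The 3 libraries held 34646663, 24698719 and 38910431 UMIs in kept cells at P38, 6 months and 12 months, with medians of 16170, 1019 and 11438.5 UMIs per cell. Depth divided the members into unlike sets, as the plot of UMIs per member shows. Members held a median of 23231 UMIs at P38, 638.5 at 6 months and 662 at 12 months, and 3, 85 and 46 of them held fewer than 2000 UMIs at these ages. The 6-month and 12-month libraries shared 136 cell barcodes, among them 40 of the 104 members at 6 months and 43 of the 59 at 12 months, whereas no member at P38 had a shared barcode. For the 39 barcodes that were members in both libraries, the ratio of the 2 UMI totals lay between 0.871 and 1.21, with a median of 1.06. The 43 shared members of the 12-month library, which came from a male, held 15 Xist UMIs and 0 UMIs of 4 Y-linked genes in 28348 UMIs. Its 16 unshared members held 0 Xist and 56 Y-linked UMIs in 270096. The transcripts of the shared members therefore went against the sex given for the library. Shares and counts over genes are given with and without them, whereas the levels of single genes in all mature and all early members include them and levels in deep members, defined below, do not.

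**Figure D1:**
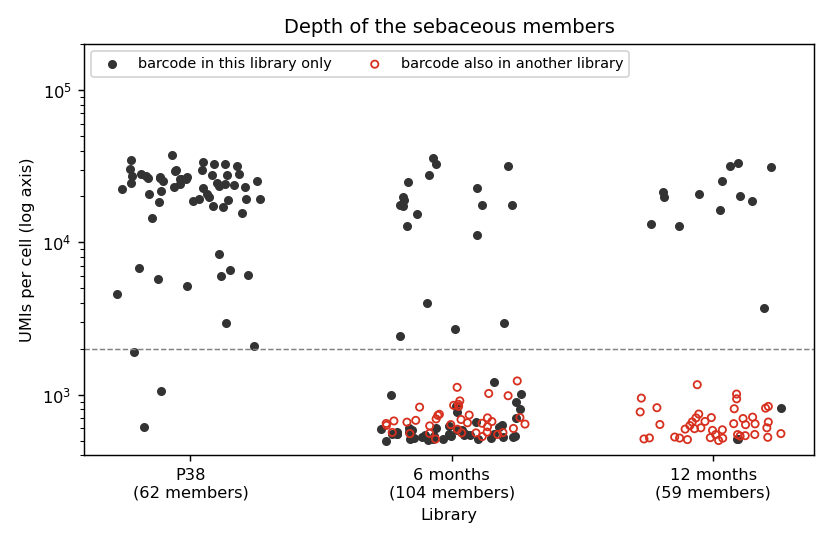
UMIs per cell (log axis) of every sebaceous member by library, filled black where the barcode occurs in that library only and open red where a second library holds it too; the dashed line marks 2000 UMIs. P38 members lie mostly above 10000 UMIs, while at 12 months 43 of 59 members are shared barcodes below 2000 UMIs.

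Shallow barcodes also sat near the gate. At 6 months the 1736 non-members with fewer than 2000 UMIs had a median of 0.168% of UMIs from Scd1 and Mgst1, and 378 barcodes reached 0.2% without 2 lipid genes. There Scd1 stood at 796 CPM (UMIs of the gene per 1e6 UMIs of the class), against 38.05 CPM in T cells of the same library, a cell type that should lack it. The members nearest the cut held 0.202%, 0.2% and 0.215% of UMIs from Scd1 and Mgst1 at P38, 6 months and 12 months, and the cells just outside it 0.194%, 0.199% and 0.181%. Exactly 2 lipid genes were detected in 4, 44 and 7 members at these ages. Cells with at least 2000 UMIs, a barcode found in 1 library and under 0.1% of UMIs from hair shaft and inner root sheath genes are called deep members below. There were 86 of them: 59 at P38, 14 at 6 months and 13 at 12 months, with medians of 23639, 17644 and 20222 UMIs. They carry the main description. At 6 months 2 of the deep members held over 1% of their UMIs from Elovl4, the elongase of the longest chains, and carried 2301 of the 2991 Scd1 UMIs of the 14 cells. A pooled 6-month level that moved by more than 1.5 times without these 2 cells is given without them too.

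Members made up 2.94% of kept cells at P38 (95% exact binomial interval 2.26 to 3.75), 2.97% at 6 months (2.43 to 3.59) and 1.82% at 12 months (1.39 to 2.34). Without shared barcodes the shares were 2.95%, 1.88% (1.45 to 2.39) and 0.514% (0.294 to 0.834), and deep members alone were 2.81%, 0.410% and 0.418% of unshared kept cells. These intervals cover counting error only, and the sort can set the shares. The kept cells also differed in make-up, with 2, 58 and 51 T cells at P38, 6 months and 12 months, so the shares have unlike denominators.

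The deep members carried the sebaceous gene set in each library, far above other basal keratin cells. Their reference was the unshared non-members with at least 2000 UMIs, Krt14 and Krt5 at 0.2% or more and Krt79 below 0.1% (1664, 982 and 1954 cells), called Krt14/Krt5 keratinocytes. Since the gate chose the members on counts of the same cells, these contrasts are descriptions and carry no test. Scd1, located at chr19:44394455-44407879 on the minus strand (GRCm38), reached 3125 CPM at P38, 11611 at 6 months and 4317 at 12 months in deep members, against 47.2, 44.5 and 62.3 CPM at the same ages in Krt14/Krt5 keratinocytes. The log2 ratio was 6.73 ± 1.12 (SD, n = 3 libraries). Mgst1, a membrane glutathione transferase at chr6:138140316-138156755, stood at 2725 CPM at P38, 3428 at 6 months and 4574 at 12 months in deep members, against 103, 273 and 27.7 CPM in the keratinocytes. In all 6 pairs of values the deep members were higher. Without the 2 cells rich in Elovl4, Scd1 stood at 3641 CPM at 6 months, and no order of the ages is read from the pooled levels.

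The lipid genes of the gate differed in how widely they were expressed. Cidea, which helps lipid droplets to fuse, had 356 CPM at P38, 1681 at 6 months and 801 at 12 months in deep members, against 3.35, 2.79 and 0.551 CPM in Krt14/Krt5 keratinocytes (8.80 ± 1.90 log2). Soat1, which esterifies cholesterol, had 367 CPM at P38, 1382 at 6 months and 447 at 12 months, against 4.64, 4.94 and 0.669 CPM (7.92 ± 1.53 log2). Far2, which reduces fatty acyl-CoA to the fatty alcohols of waxes, had 153 CPM at P38, 1277 at 6 months and 212 at 12 months, against 1.84, 1.07 and 0.433 CPM (8.48 ± 1.93 log2). Without the 2 cells rich in Elovl4 the 6-month levels were 871 CPM for Cidea, 997 CPM for Soat1 and 306 CPM for Far2. None of the 3 exceeded 4.94 CPM in the keratinocytes of any library.

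Awat2, a wax ester synthase, was seen in 19 of 59 deep members of the P38 library, 9 of 14 of the 6-month library and 3 of 13 of the 12-month library, at 45.6, 369 and 26.1 CPM, against 1.11, 0.215 and 0.118 CPM in Krt14/Krt5 keratinocytes. Elovl3, an elongase of long saturated chains, gave 147, 641 and 324 CPM in deep members, against 1.40, 1.36 and 0.354 CPM. Awat2 stood at 73.9 CPM and Elovl3 at 391 CPM at 6 months without the 2 cells rich in Elovl4. Pparg gave 75.5, 186 and 123 CPM, against 2.28, 2.01 and 0.354 CPM. Dgat2, which completes triglycerides, had 193 CPM at P38, 58.2 at 6 months and 287 at 12 months, against 10.9, 7.73 and 6.46 CPM in the keratinocytes. Apoc1 separated the classes least, with 3295 CPM at P38, 2539 at 6 months and 2993 at 12 months, against 675, 669.9 and 1045 CPM (1.91 ± 0.38 log2), so Apoc1 was abundant in both classes. With shallow and shared barcodes kept in, Apoc1 was seen in 81.4%, 55.9% and 91.7% of such keratinocytes. It therefore told little as 1 of the 2 lipid genes that the gate required.

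**Figure D2:**
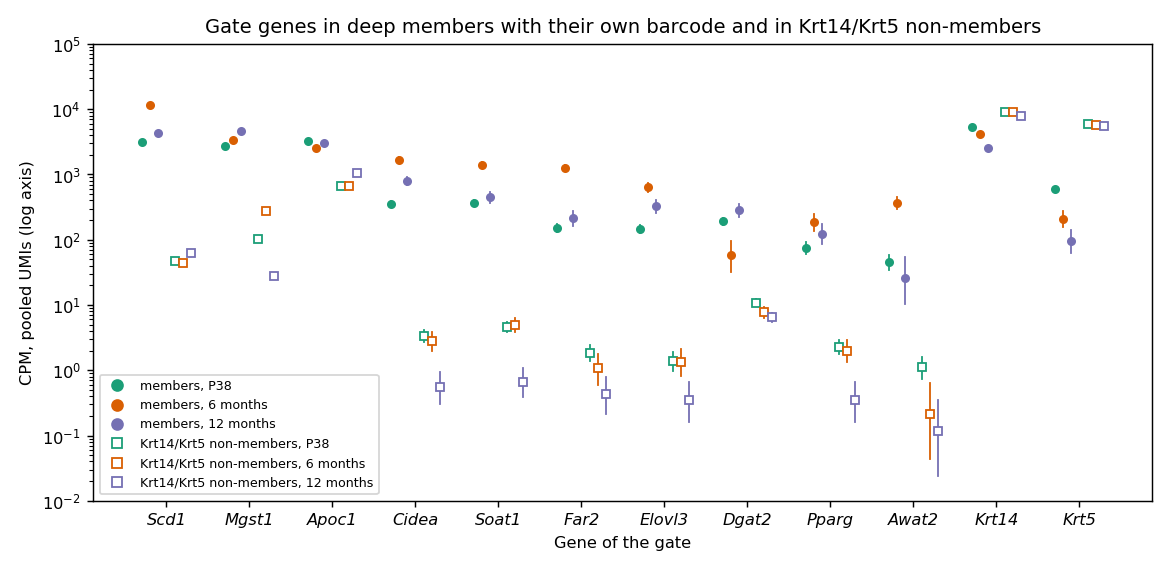
Pooled CPM (log axis) of the 12 gate genes in deep members (filled circles) and in Krt14/Krt5 keratinocytes (open squares), coloured by library, with exact Poisson 95% intervals as bars. The lipid genes lie above the squares of the same library throughout, with Apoc1 the closest pair, and Krt14 and Krt5 lie below them. The keratinocyte class was chosen with a floor on Krt14 and Krt5.

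The split keratins were lower in deep members. Krt14 stood at 5253 CPM at P38, 4149.7 at 6 months and 2576 at 12 months in deep members, against 9044, 9228 and 7985 CPM in Krt14/Krt5 keratinocytes, and Krt5 at 590.5 CPM at P38, 209.6 at 6 months and 96.9 at 12 months, against 5929, 5664 and 5566 CPM. Krt14 was seen in 59 of 59, 14 of 14 and 13 of 13 deep members at P38, 6 months and 12 months, with little Krt5 beside it. Krt79, a keratin of the upper follicle and gland duct that the gate did not use, stood at 1309 CPM at P38, 1526 at 6 months and 1148 at 12 months in deep members, against 60.8, 36.4 and 17.7 CPM, and was found in every deep member (5.28 ± 0.80 log2). The comparison class was itself cut at Krt79 below 0.1%, which raises that ratio by construction.

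Over all 12344 genes with at least 10 UMIs in both classes together in each library, 727 (5.89%) were at least 2-fold higher in deep members in every library and 1126 (9.12%) at least 2-fold lower, with a median log2 ratio of -0.05. The fatty acid and cholesterol synthesis lists, which hold no gene of the gate, stood well above these shares, and the plot of list medians shows them with the other lists. Leaving out the 2 cells rich in Elovl4, 759 of 12335 genes were higher and 1090 lower. Of 12 compared genes of fatty acid synthesis, 10 were higher and 0 lower, with a median of 3.17. Of 23 genes of cholesterol synthesis, 17 were higher and 0 lower (median 3.10). Of 16 of elongation and desaturation, 8 were higher and 2 lower (median 2.68) with Scd1 and Elovl3 of the gate among them. Without these 2 genes 6 of 14 were higher and 2 lower (median 1.41), and without the 2 cells as well 6 and 3 (median 0.62). Peroxisome genes were higher for 14 of 27 and lower for 1 (median 1.47), and lipid droplet and lipolysis genes for 6 of 10 and 0 (median 2.14). The droplet list includes Cidea of the gate, without which 5 of 9 genes were higher and 0 lower (median 1.80). Outside the 4 genes of the gate it holds, the list of wax ester, sterol ester and triglyceride synthesis had 3 of 13 genes higher and 0 lower, with a median of 0.22.

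**Figure D3:**
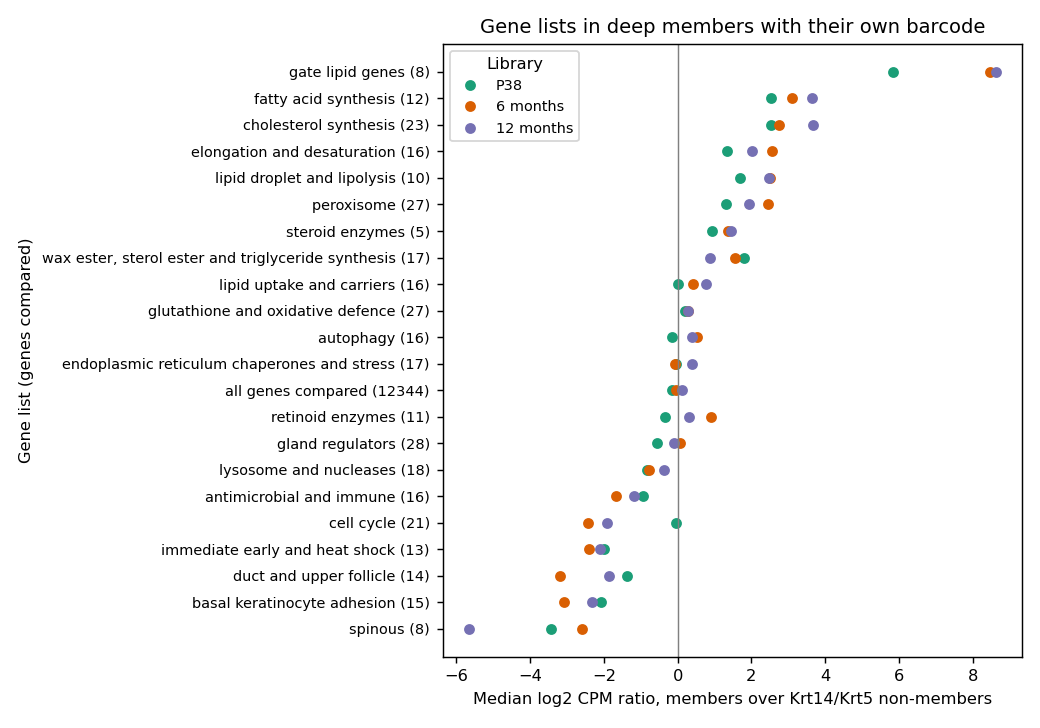
Median log2 ratio of deep members over Krt14/Krt5 keratinocytes for each gene list (1 row per list, with the genes compared), with 1 point per library. The fatty acid and cholesterol synthesis lists lie to the right of 0 at each age, and the basal adhesion, duct, spinous and immediate early lists to the left.

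At the start of the pathway, Acly, which makes acetyl-CoA from citrate, had 101, 357 and 362 CPM in deep members at P38, 6 months and 12 months, against 31.3, 48.5 and 26.9 CPM in Krt14/Krt5 keratinocytes. Fasn, the fatty acid synthase, had 116, 563 and 328 CPM, against 20.9, 32.2 and 17.2 CPM (3.62 log2). Acaca, the cytosolic acetyl-CoA carboxylase, was less distinct, with 27.5, 73.8 and 33.5 CPM, against 13.6, 15.8 and 11.9 CPM. Its paralog Acacb had 10.2, 113 and 96.9 CPM, against 0.516, 0.358 and 0.394 CPM (6.80 ± 2.16 log2). Leaving out the 2 cells rich in Elovl4 gave 6-month levels of 311 CPM for Fasn and 52.8 CPM for Acacb. The regulator Srebf1 had 190.3, 179 and 175 CPM, against 26.0, 36.0 and 33.0 CPM (2.54 ± 0.29 log2), and was close to level across the 3 ages.

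Among the elongases, Elovl6 (chr3:129532355-129638495), which lengthens palmitate, had 609 CPM at P38, 5380.2 at 6 months and 2833 at 12 months in deep members, against 15.5, 36.8 and 20.6 CPM in Krt14/Krt5 keratinocytes (6.53 ± 1.07 log2). Elovl1, an elongase of saturated very long chains, was lower at 15.7, 11.6 and 11.2 CPM, against 49.6, 40.8 and 37.7 CPM (-1.58 ± 0.05 log2). Elovl5, which acts on polyunsaturated chains, had 74.7, 842 and 59.6 CPM, against 15.7, 26.4 and 7.56 CPM. Scd2, the paralog of Scd1, had 12.6, 3.88 and 0 CPM, against 7.59, 26.6 and 17.8 CPM, so the 2 desaturases did not share a pattern. Fa2h, which adds a hydroxyl group to fatty acids, had 103, 1789.5 and 358 CPM, against 1.84, 1.22 and 0.0394 CPM, the last of these on 1 UMI. Without the 2 cells rich in Elovl4 the 6-month levels were 3541 CPM for Elovl6, 68.6 CPM for Elovl5 and 486 CPM for Fa2h.

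In cholesterol synthesis, Hmgcs1, the synthase early in the pathway, had 765, 998 and 988 CPM in deep members, against 141, 272 and 174 CPM in Krt14/Krt5 keratinocytes (2.27 ± 0.35 log2). Sqle, which oxidises squalene, was one of the 6 genes of the list without a call, at 103, 151 and 138 CPM, against 55.3, 65.3 and 14.1 CPM. The droplet coat protein Plin2 had 2656 CPM at P38, 3548 at 6 months and 1424 at 12 months in deep members, against 116, 101 and 25.2 CPM (5.16 ± 0.65 log2). Of the carriers, Fabp5 had 4296, 8808 and 3739 CPM, against 225, 1820.0 and 50.8 CPM (4.24 ± 1.96 log2), with the smallest gap at 6 months, where it stood at 5235 CPM without the 2 cells rich in Elovl4. Dbi, which binds acyl-CoA, went the other way, at 68.4, 85.4 and 0 CPM in deep members, against 718, 1943 and 403 CPM, and was not detected in the 13 deep members at 12 months, which allows up to 13.8 CPM by its exact Poisson interval.

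Regulators of the gland were mixed, with 6 of 28 higher and 4 lower (median -0.28), Pparg of the gate among them. Without Pparg 5 of 27 were higher and 4 lower (median -0.42), and without the 2 cells rich in Elovl4 as well 5 and 5 (median -0.27). Cebpa had 373, 532 and 391 CPM in deep members, against 79.3, 77.0 and 52.6 CPM in Krt14/Krt5 keratinocytes (2.64 ± 0.36 log2). Mc5r, the melanocortin receptor of the gland, had 25.2, 81.5 and 201 CPM, against 0.589, 3.72 and 0.630 CPM, and was found in 16 of 59, 2 of 14 and 10 of 13 deep members at P38, 6 months and 12 months. Its 6-month level was 52.8 CPM without the 2 cells rich in Elovl4. Klf4 was lower, at 129, 19.4 and 41.0 CPM, against 1277, 1028 and 933 CPM (-4.45 ± 1.14 log2), and so was the follicle regulator Sox9, at 246, 163 and 104 CPM, against 946, 709.8 and 164 CPM, where the 12-month values lay closest. Prdm1 (Blimp1) was at 0 in deep members at P38 and 12 months and was found in 1 of 14 at 6 months.

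Lists of attachment, stratification and acute response lay lower in deep members. Of 15 genes of basal keratinocyte adhesion, 0 were higher and 10 lower (median -2.59). Col17a1, a hemidesmosome collagen, had 84.9, 38.8 and 18.6 CPM in deep members, against 962, 666 and 688 CPM in Krt14/Krt5 keratinocytes, and Itgb4 24.4, 7.76 and 7.46 CPM, against 142, 113 and 135 CPM. Krt15 had 589, 58.2 and 48.5 CPM, against 7093, 4014 and 6288 CPM. Of the immediate early and heat shock genes, 0 of 13 were higher and 8 lower (median -2.07); Fos had 430.1, 93.2 and 932 CPM, against 3069, 3119 and 5689 CPM. Chaperones of the endoplasmic reticulum had 0 of 17 genes called in either direction (median 0.02), and autophagy genes 1 of 16 higher and 0 lower.

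A second comparison used cells outside the gate with at least 0.1% of UMIs from Krt79 (185, 141 and 200 unshared cells with at least 2000 UMIs), a keratin of the duct and the upper follicle. Of 8722 genes compared, 784 (8.99%) were at least 2-fold higher and 953 (10.9%) at least 2-fold lower in deep members in every library. Fatty acid synthesis genes were higher for 9 of 12 and lower for 1, and cholesterol genes for 14 of 23 and 0. Of the duct and upper follicle list, 11 of 13 were lower and 0 higher (median -5.68), and of the spinous list 9 of 9 were lower. The class was chosen by a floor on Krt79, so low duct genes in deep members can follow in part from that choice. Cst6 (-9.57 ± 2.07 log2), a protease inhibitor, and Krtdap (-7.96 ± 1.61 log2), a gene of keratinocyte differentiation, were among the lowest, and Igfbp2 (9.07 ± 1.90 log2) and Mc5r (8.75 ± 1.29 log2) among the highest.

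Over all 225 members the picture against Krt14/Krt5 non-members was similar in number, with 659 of 12428 genes (5.3%) higher and 1036 (8.34%) lower. Against Krt79 non-members, members had 757 of 9203 genes (8.23%) higher and 833 (9.05%) lower.

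Markers of other cell types were near 0 in the deep members. Of 7 fibroblast markers, 2, 3 and 5 were detected at P38, 6 months and 12 months, with summed levels of 12.6, 15.5 and 37.3 CPM. T cell markers summed to 1.57, 0 and 3.73 CPM, and 11 adipocyte markers to 5.50, 7.76 and 7.46 CPM, with Adipoq, Plin1 and Lep at 0. The 14 hair shaft and inner root sheath genes summed to 8.65, 58.2 and 3.73 CPM in deep members, which were chosen to be low in them. The deep members had medians of 7.12%, 6.60% and 12.0% mitochondrial UMIs at P38, 6 months and 12 months, against 5.14%, 4.64% and 5.53% in Krt14/Krt5 keratinocytes, and the part of this in the age differences was not tested.

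The Krt14/Krt5 split yielded few deep mature cells. Mature members were 1 of 62 at P38 (1.61%, 95% exact binomial interval 0.0408 to 8.66), 27 of 104 at 6 months (26.0%, 17.9 to 35.5) and 21 of 59 at 12 months (35.6%, 23.6 to 49.1). Without shared barcodes they were 14 of 64 at 6 months (21.9%, 12.5 to 34.0) and 5 of 16 at 12 months (31.3%, 11.02 to 58.7). Among deep members they were 1 of 59, 2 of 14 and 4 of 13 cells. The nearest cells on both sides of the split held 0.149% and 0.233% in the P38 library, 0.196% and 0.231% in the 6-month library and 0.197% and 0.2% in the 12-month library. In shallow cells few UMIs decided the class, since 45 members at 6 months and 26 at 12 months held only 1 to 3 Krt14 or Krt5 UMIs, and 17, 40 and 32 members lay between 0.1% and 0.4%. With the cut at 0.1% the mature shares were 0%, 6.73% and 16.9% at P38, 6 months and 12 months, and at 0.4% they were 27.4%, 45.2% and 71.2%, so mature and early are ranges of 1 measure and not types, and no order of the ages is read from them.

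At 6 months the data went against the name mature for most deep cells below the cut. Of the 6 unshared mature members with at least 2000 UMIs, 4 held hair shaft or inner root sheath transcripts above 0.1% of UMIs. Among them, 2 cells held the hair cortex keratin Krt35 at 6623 and 6999 CPM with S100a3 at 6272 and 22334 CPM. Another cell held the inner root sheath keratins Krt25 at 6464 and Krt71 at 4439 CPM, and the last Tchh (trichohyalin) at 13272 CPM. They entered by Mgst1 (1986 to 4168 CPM), while their Scd1 lay at 50.2, 127, 0 and 271 CPM. The 2 deep mature cells without these transcripts had Scd1 at 5628 and 4359 CPM and 8 of 8 lipid genes. Among shallow barcodes at 6 months hair transcripts were general, with 1459 of 1736 non-members under 2000 UMIs above 0.1%, so the 31 shallow members with hair transcripts are not told apart from that background.

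**Figure D4:**
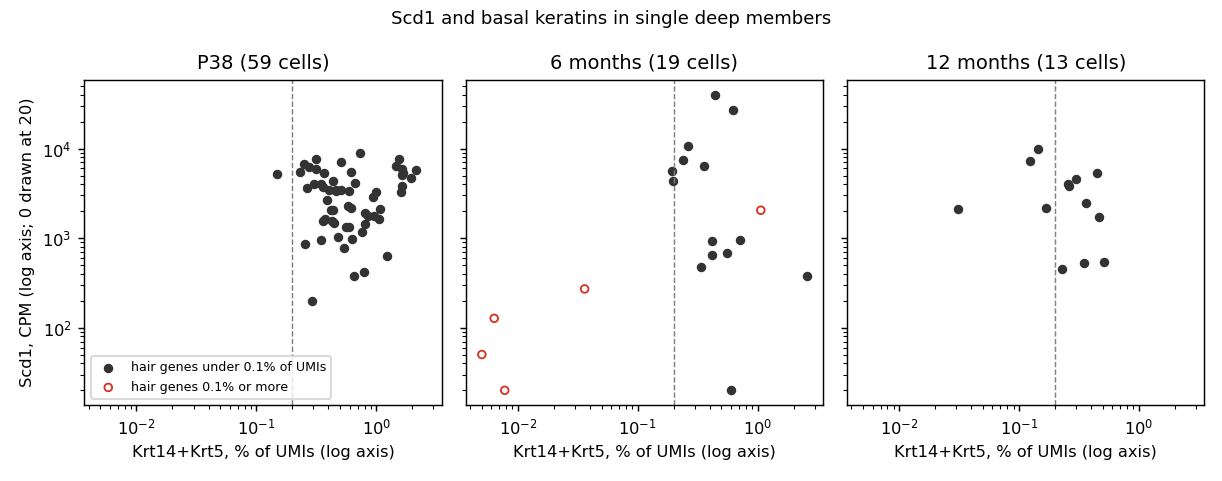
Scd1 in CPM against Krt14 plus Krt5 in percent of UMIs for each deep cell of the gate, 1 panel per library, both axes logarithmic with values of 0 drawn at the lower edge; the dashed line is the split at 0.2%, and the cells with hair transcripts are marked apart. At 6 months 4 cells left of the line hold hair transcripts and little Scd1, and at P38 a single cell lies left of it.

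Mature over early cells differed in few genes. Of 3288 genes with at least 10 UMIs in both classes together in each library, 13 (0.395%) were at least 2-fold higher and 30 (0.912%) at least 2-fold lower in mature members in 3 of 3 libraries. Without P38, where a single cell stood for the mature class, 51 of 3306 (1.54%) were higher and 79 (2.39%) lower, and without P38 and shared barcodes 46 of 3018 (1.52%) and 87 (2.88%). In deep members, 14 of 2674 (0.524%) were higher and 27 (1.01%) lower, and without P38 54 of 2678 (2.02%) and 65 (2.43%). The lipid lists held no more than 1 call each: the median was -0.07 for 11 fatty acid synthesis genes and 0.31 for 21 cholesterol genes. Scd1 had log2 ratios of 0.74 at P38, -1.98 at 6 months and 0.69 at 12 months, and Mgst1 of 0.22 at P38, 0.16 at 6 months and 0.29 at 12 months. At 6 months Scd1 stood at 3123 CPM in mature and 12346 CPM in early members, and the sign of this ratio rested on few cells. Without the deep members with hair transcripts and the 2 cells rich in Elovl4 it was 0.59, with 6762 CPM in 23 mature and 4504 CPM in 74 early members, and in deep members without the 2 cells 0.64.

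The immediate early and heat shock genes lay lower in mature members. Of 11 compared, 7 were lower in every library and 0 higher (median -1.96), and in deep members 5 of 10 were lower (median -2.43). Without shared barcodes 8 of 11 were lower, and without the deep members with hair transcripts 5 of 11. Atf3, a stress-induced transcription factor, had 41.4, 94.4 and 18.7 CPM in mature members at P38, 6 months and 12 months, against 358, 387 and 256 CPM in early members. The P38 mature class was 1 cell of 24163 UMIs, in which 41.4 CPM is 1 UMI. At 12 months the class held 106827 UMIs, so 18.7 CPM of Atf3 also rests on few UMIs. Jun had 1076, 239.7 and 262 CPM in mature members, against 1272, 1108 and 2192 CPM in early members. Fos had 41.4, 123 and 159 CPM, against 439.5, 268 and 1367 CPM, but in deep members at 6 months its ratio was positive at 1.67 (log2), on 10 and 14 UMIs, and in all members without the deep cells with hair transcripts it was 0.10. Btg2, an antiproliferative early response gene, had 41.4, 225 and 206 CPM in mature members, against 399, 1661 and 767 CPM. The 6-month mature levels include the deep cells with hair transcripts, which lay among the 6 mature members under 0.05% of Krt14 and Krt5. Those 6 held 76823 of the 137683 UMIs of the class, with Jun at 39.1 CPM, against 493 CPM in the other 21.

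Krt5, which the split used, was among the lowest genes (-2.96 ± 0.70 log2). With it stood Ccl27a, a keratinocyte chemokine, at 82.8, 0 and 0 CPM in mature members, against 377, 110.4 and 141 CPM in early members, and Ly6d, at 82.8, 36.3 and 103 CPM, against 770.4, 568 and 376 CPM. Ier3, an early response gene, had 82.8, 36.3 and 37.4 CPM, against 945, 367 and 172 CPM. The rest of the 10 lowest were Gm20186, Aldh3a1, Ifitm3 and Thbs1. At the other end, Oat, ornithine aminotransferase, had 1945 CPM at P38, 479 at 6 months and 2443 at 12 months in mature members, against 468, 241 and 548 CPM in early members (1.74 ± 0.65 log2), and in deep members 1945, 1131 and 2659.8 CPM, against 466, 191 and 574 CPM. Smarca4, the ATPase of a chromatin remodelling complex, had 207, 131 and 140.4 CPM, against 56.7, 35.5 and 41.7 CPM (1.85 ± 0.14 log2), on 5, 18 and 15 UMIs in the mature classes. The other 8 highest genes were Rnaset2a, Cdc42bpg, 5930430L01Rik, Med14, Zfp329, Herc1, Thap2 and 1700123O20Rik. Levels in all mature members at 6 months include the deep cells with hair transcripts, and P38 levels come from a single mature cell.

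Within the deep members, lipid genes varied with Scd1. Over single cells Scd1 ran at a minimum, median and maximum of 199, 3296 and 9011 CPM at P38, 0, 2661 and 40083 CPM at 6 months and 458, 2474 and 9959 CPM at 12 months. The summed level of 56 genes of fatty acid synthesis, elongation and cholesterol synthesis, Elovl4 included and none of the gate, had a Spearman correlation with Scd1 over cells of 0.78 at P38 (59 cells), 0.89 at 6 months (14 cells) and 0.86 at 12 months (13 cells). With Krt14 and Krt5 the same sum gave 0.14, -0.41 and -0.38. Without the 2 cells rich in Elovl4 the 6-month values were 0.83 with Scd1 and -0.80 with Krt14 and Krt5 (12 cells). Scd1 with Krt79 gave 0.71, 0.86 and 0.75. Cells of 1 library share their mouse, preparation and free RNA, and Scd1 also had a correlation with the cell's UMI total of 0.65 at 6 months (0.45 without the 2 cells), 0.88 at 12 months and -0.14 at P38, so these are descriptions without a test.

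By Scd1 level, the summed lipid synthesis genes stood at 5304, 6419 and 6854 CPM in deep members under 1000 CPM of Scd1 at P38, 6 months and 12 months (8, 7 and 3 cells). In deep members with at least 4000 CPM they stood at 14903, 51420 and 24418 CPM (21, 7 and 5 cells), and at 6 months at 28055 CPM in the 5 of these 7 cells that were not rich in Elovl4. Between these limits 30 cells at P38 had 7755 CPM and 5 cells at 12 months 14693 CPM, and none lay there at 6 months. By Krt14 and Krt5, the sum at P38 was 13640 CPM in 12 deep members with at least 1% of UMIs. In the 46 between 0.2% and 1% it was 9137 CPM. The 12 cells held 117962 UMIs together and the 46 cells 1129770. At 6 months 1 deep member reached 1%, with a sum of 3734 CPM, and at 12 months 0 did.

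**Figure D5:**
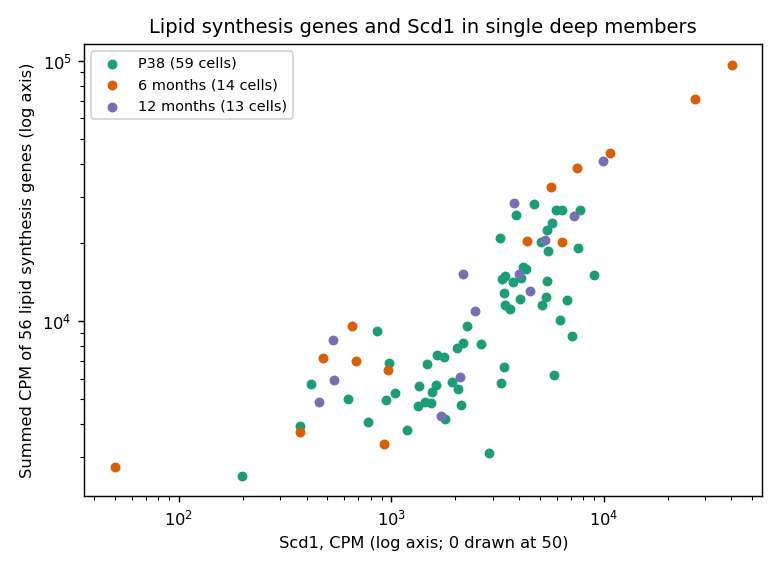
Summed CPM of 56 lipid synthesis genes outside the gate against Scd1 CPM in each deep member, 1 colour per library, both axes logarithmic with an Scd1 of 0 drawn at 50. The points climb together in each library, and the 2 cells of 6 months highest in Elovl4 stand at the upper right.

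The 2 cells rich in Elovl4 stood apart in this ranking. Elovl4 (chr9:83778692-83806277, minus strand) reached 64704 and 30994 CPM in them. In the other deep members Elovl4 was seen in 11 of 59 cells of the P38 library, 3 of 12 of the 6-month library and 2 of 13 of the 12-month library, at 10.2, 73.9 and 18.6 CPM, against 9.47, 19.0 and 16.9 CPM in Krt14/Krt5 keratinocytes of the same ages. Both cells also held Awat1, a wax ester synthase, at 1204 and 1264 CPM, Scd1 at 40083 and 26830 CPM and Far2 at 5658 and 2128 CPM. Their Krt14 and Krt5 made up 0.443% and 0.623% of UMIs, so the cells highest in lipid genes counted as early, not mature. They held 35701 and 32426 UMIs, and a pair of cells in 1 droplet was not tested for.

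The promoters of these enzymes are shown because Elovl4 and Awat1 stood high in the 2 cells, with Awat2, the neighbour of Awat1 on the X chromosome, beside them. Elovl4 and Awat2 were both seen in each library, and without the 2 cells both stood at 73.9 CPM at 6 months. The 250 bases before each annotated start (for Awat2 1 of 2 starts) were taken from RefSeq (GRCm38.p6), 5′ to 3′ on the gene's strand, with motif matches on either strand in capitals. The search used the CCAAT box by those letters and the GC box as GGGCGG. It also used the nuclear receptor motif AGGTCA and the PPAR direct repeat, which is that motif written in tandem with 1 base between, so every direct repeat also holds the nuclear receptor motif. Elovl4 is at chr9:83806306-83806555 (minus), Awat1 at chrX:100571997-100572246 (plus), and Awat2 at chrX:100442718-100442967 (minus).
Elovl4: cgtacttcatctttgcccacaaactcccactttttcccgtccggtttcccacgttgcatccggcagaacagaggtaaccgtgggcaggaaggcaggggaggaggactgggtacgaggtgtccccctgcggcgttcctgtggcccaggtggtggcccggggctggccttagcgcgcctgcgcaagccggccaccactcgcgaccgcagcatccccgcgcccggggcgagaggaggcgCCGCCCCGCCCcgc
Awat1: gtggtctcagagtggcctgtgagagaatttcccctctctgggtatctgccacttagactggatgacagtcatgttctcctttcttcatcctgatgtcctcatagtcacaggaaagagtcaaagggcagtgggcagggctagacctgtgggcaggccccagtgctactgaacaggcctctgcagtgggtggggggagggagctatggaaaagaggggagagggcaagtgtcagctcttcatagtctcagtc
Awat2: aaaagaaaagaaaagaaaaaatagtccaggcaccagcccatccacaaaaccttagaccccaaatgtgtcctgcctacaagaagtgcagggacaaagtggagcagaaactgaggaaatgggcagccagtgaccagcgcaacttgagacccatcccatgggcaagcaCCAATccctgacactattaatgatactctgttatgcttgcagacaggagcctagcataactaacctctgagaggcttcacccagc

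Elovl4 held 2 overlapping GC boxes that began 14 and 9 bases before the start, Awat1 no match and Awat2 a CCAAT box 85 bases before it. The other Awat2 start, whose sequence is not shown, had a CCAAT box 121 and a GC box 70 bases before it. Among 32851 mouse promoters of this length, 33.8% held the CCAAT box, 32.7% the GC box, 14.0% the nuclear receptor motif and 0.0335% the direct repeat, so matches to the first 3 are common and the direct repeat was in none of the promoters examined here.

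The age pairs were described in deep members first, where each class was of like depth. At 6 months over P38, 899 of 6055 genes (14.8%) were past 2-fold higher and 627 (10.4%) lower, at 12 months over P38 631 of 6028 (10.5%) and 724 (12.0%), and at 12 months over 6 months 178 of 3292 (5.41%) and 458 (13.9%). Scaled by the median ratio instead of total UMIs, the last pair gave 242 higher and 365 lower. The median log2 ratios of all compared genes were 0.12, 0.08 and -0.13, and list values are read beside them. Fatty acid synthesis genes had medians of 1.59, 1.002 and -0.03 in these pairs, with 7 of 12, 6 of 11 and 1 of 11 genes past 2-fold higher and 0, 0 and 2 lower. Cholesterol synthesis genes had 0.39, 1.05 and 0.26, with 6 of 22, 11 of 21 and 4 of 22 higher and 0, 0 and 3 lower. Comparisons that share the P38 or the 6-month library are not independent of each other.

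The 2 cells rich in Elovl4 decided part of this. Without them the elongation list at 6 months over P38 had a median of 0.24, against 1.89 with them, and the wax and triglyceride list 0.11, against 1.24, while fatty acid synthesis had 1.21, against 1.59 with them. Without them 706 of 5861 genes (12.0%) were past 2-fold higher and 558 (9.52%) lower at 6 months over P38, and 153 of 2881 (5.31%) and 262 (9.09%) at 12 months over 6 months. The 5 genes highest at 6 months over P38 in all deep members (Elovl4, Serpina3j, Awat1, Rnase2b and Ces4a) were none of the 5 highest without them.

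Without these 2 cells the 5 highest were Ifi27l2a, Gm10076, Akr1c18, Cebpb and Gm8797. Akr1c18, a hydroxysteroid dehydrogenase, had a minimum, median and maximum over deep members of 0, 0 and 1787 CPM at P38, 0, 2153 and 8264 CPM at 6 months and 0, 0 and 452 CPM at 12 months. Ifi27l2a, an interferon-induced gene, came from 3 of 14 cells at 6 months. Cebpb, a transcription factor of the C/EBP family, had 0, 123 and 505 CPM at P38, 0, 1269 and 2621 CPM at 6 months and 314, 1865 and 4604 CPM at 12 months. The median cell of both older libraries lay above the highest P38 cell in Cebpb, though single cells of the libraries overlapped.

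The lowest genes at 6 months over P38 were Lcn2, Cx3cr1, Aqp3, F3 and Epgn. Lcn2, an iron-carrier binding defence protein, was found in 39 of 59 deep members of the P38 library, 0 of 14 of the 6-month library and 5 of 13 of the 12-month library, with pooled levels of 505, 0 and 70.8 CPM. At 12 months over P38 the lowest were Aqp3, Serpinb2, Phlda1, Cxcl1 and Chil1, and the highest Gm10076, Cebpb, Gadd45g, Mc5r and Paqr7. Mc5r had a log2 ratio of 2.99 (counting interval 2.34 to 3.68). The duct list had medians of -1.34 and -2.71 over P38, with 6 of 10 and 8 of 9 genes past 2-fold lower, and the antimicrobial list -1.41 and -1.50, with 5 of 8 lower in each. Basal adhesion genes were lower for 5 of 11 and 8 of 11 in the same pairs, and for 2 of 11 at 6 months over P38 without the 2 cells rich in Elovl4. In all early members at 6 months over P38, 4 of 11 genes of the duct list were past 2-fold higher and 3 lower (median 0.13), and without shared barcodes 4 and 2 (median 0.18). Basal adhesion genes were lower for 2 of 11 in the early members of this pair.

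At 12 months over 6 months, Acoxl, a peroxisomal acyl-CoA oxidase-like gene, was found in 12 of 13 deep members at 12 months, against 0 of 14 at 6 months. At P38 it was found in 38 of 59. Gadd45g, Id1, Fos and Mt2 followed among the highest, and Elovl4, Cyp2g1, Ifi27l2a, Serpina3j and Awat1 were lowest. Elovl4 had a log2 ratio of -9.30 with the 2 cells, and without them it stood at 18.6 CPM at 12 months, against 73.9 CPM at 6 months.

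In early members with all barcodes kept, 924 of 6063 genes (15.2%) were past 2-fold higher and 587 (9.68%) lower at 6 months over P38, 591 of 5826 (10.1%) and 725 (12.4%) at 12 months over P38, and 156 of 2873 (5.43%) and 425 (14.8%) at 12 months over 6 months. With the median-ratio scaling the last pair gave 207 higher and 349 lower. Without shared barcodes the 3 pairs gave 906 of 6017 (15.1%) higher and 577 (9.59%) lower, 537 of 5769 (9.31%) and 736 (12.8%), and 159 of 2675 (5.94%) and 466 (17.4%). The early members at 12 months over P38 were highest in Elovl4 and Cyp2g1, which were at 1023 and 543 CPM at 12 months, against 10.4 and 7.19 CPM at P38. At 12 months both were high in the shared members, at 9101 CPM of Elovl4 and 5115 CPM of Cyp2g1, and low in deep members, at 18.6 CPM and 0. In the 6-month library shared members had 7609 and 5369 CPM, against 12923 and 446 CPM in deep members, or 73.9 and 190.0 CPM in deep members without the 2 cells rich in Elovl4.

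In mature members pairs with P38, where the class was 1 cell, were not described. At 12 months over 6 months they had 151 of 1772 genes (8.52%) past 2-fold higher and 275 (15.5%) lower, and 168 of 1605 (10.5%) and 280 (17.4%) without shared barcodes. The lowest were S100a3, Krt35, Dbi, Dapl1 and Tchh, at 0 UMIs in 21 mature members at 12 months, and the 6-month level of S100a3, Krt35 and Tchh came with the deep hair cells above. The highest were Cyb5r3, Echdc1, Oat, Mc5r and Kcnq1ot1.

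The shared members were shallow but rich in gland transcripts. Against deep members of the 6-month library, 580 of 3685 genes (15.7%) were past 2-fold higher and 815 (22.1%) lower in its 40 shared members. Fabp5 reached 23181 CPM in shared members, against 8808 CPM in deep members, and Elovl6 14471 CPM, against 5380.2 CPM. The highest of that contrast were Cyp2g1, Carns1, Lratd1, Gsta3 and Gm9944. Shallow unshared members at 6 months (45 cells) had Scd1 at 5299 CPM and Fabp5 at 9913 CPM, against 796 and 3156 CPM in non-members under 2000 UMIs. The gate chose members by Scd1, which raises that gap by construction. Of these 45 cells 29 held hair transcripts at 0.1% of UMIs or more, and 30 had exactly 2 lipid genes.

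Detection was also compared at matched depth. After each deep member was thinned to 1000 UMIs, Scd1 was found in 81.4% of cells at P38 (95% exact binomial interval 69.1 to 90.3), 71.4% at 6 months (41.9 to 91.6) and 76.9% at 12 months (46.2 to 94.96). Unthinned, the shares were 100%, 92.9% and 100%. Elovl6 was found in 37.3%, 64.3% and 46.2% of thinned cells, and Fabp5 in 69.5%, 71.4% and 53.8%. Awat2 was found in 1 of 59, 3 of 14 and 0 of 13 thinned cells, too few for an order. The intervals of Scd1, Elovl6 and Fabp5 overlap between the libraries. Each share is 1 random draw, and the intervals leave out the spread between draws. Another draw from the same 13 cells at 12 months found Elovl6 in 76.9% and Fabp5 in 38.5%, so no order of the ages is read from these shares.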

How the data were processed

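The values used are UMI counts, unnormalized, which the authors deposited for each gene in each barcode and made from 10x Chromium 3′ libraries with Cell Ranger on mm10; versions 6.0.0 and 6.1.2 stand in the file headers and 6.1.2 in the submitters' processing notes. A barcode was kept with over 200 genes but under 5000, and mitochondrial genes below 15% of its UMIs (2109, 3502 and 3240 of 2397, 4761 and 5421). No doublet caller was run, and an alternative left out cells with 4000 or more genes. Counts were summed per class and library to CPM, with exact Poisson 95% intervals for single classes. Log2 ratios had 0.5 UMIs added to each class. A gene with at least 10 UMIs was called when at least 2-fold in the same direction in every library, and in age pairs, from 20 UMIs, when past 2-fold. With 1 library per age and members chosen by readout, no test was made, and p-values are not given. The members and gene lists were chosen with earlier results of these data known. Shared barcodes, deep members and the cells rich in Elovl4 were set apart after the data were seen. Named genes were the 12 of the gate, abundant or explained members of the lists, and the 10 highest and lowest ratios of mature over early members, with 5 per age pair from 50 UMIs; the highest of the deep member contrasts were named by the same ranking, added later. Python 3.11.15, numpy 2.4.6, scipy 1.17.1 and pandas 2.3.3 were used, and scripts were tested on simulated data.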

Additional observations from a re-analysis of the deposited data

Results flagged for a closer look

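Scd1 and Elovl3 had ratios of opposite sign between mature and early members of 2 libraries when all cells were kept. The log2 ratio of mature over early was -1.98 for Scd1 and -1.84 for Elovl3 at 6 months, and 0.69 for Scd1 and 0.74 for Elovl3 at 12 months, and the difference between the libraries was not tested. Without the deep members with hair transcripts and the 2 cells rich in Elovl4, the 6-month ratios were 0.59 for Scd1 and -0.25 for Elovl3, whose counting interval was -0.93 to 0.35.

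Some barcodes outside the cell filter met the sebaceous gate, 36 of 288 in the P38 library, 37 of 1259 in the 6-month library and 6 of 2181 in the 12-month library. Of these, 31, 32 and 1 held 5000 or more genes. Their pooled Scd1 was 12479, 13858 and 4199 CPM and their Elovl4 2149, 10192 and 86.6 CPM, and no comparison above uses them.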

How the results depend on the processing

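No paired analysis of the ages was possible because each age is 1 library, with no replicates within an age to pair. The ratios of mature over early members and of members over non-members were taken within each library. Under the alternatives, 64 values of shares and counts moved past their limits and 127 did not, and the cause was not tested. The member share at P38 was 4.88%, 1.80% and 1.95% with Scd1 and Mgst1 at 0.1%, at 0.4% and without cells of 4000 or more genes. At 6 months it was 4.65% and 1.94% at these gates, 1.71% with 3 lipid genes, 1.13% from 2000 UMIs, 1.94% without hair genes and 1.88% without shared barcodes. At 12 months it was 0.425% from 2000 UMIs and 0.514% without shared barcodes. The mature share was 0%, 6.73% and 16.9% at the 3 ages with the split at 0.1%, 27.4%, 45.2% and 71.2% with it at 0.4%, and 14.3% in deep members at 6 months.

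The 13 genes higher in mature members became 21 and 7 with the gate at 0.1% and 0.4%, 8 with 3 lipid genes, 131 and 0 with the split at 0.1% and 0.4%, 8 without shared barcodes, 29 by mean per-cell CPM, and 0 and 284 from 30 UMIs and 1 UMI. The 30 lower became 51 and 15 at these gates, 16 without cells of 4000 or more genes, 127 and 9 at these splits, 60 by mean per-cell CPM, and 16 and 46 from 30 UMIs and 1 UMI. Without 1 library each, where 2 libraries had to agree in place of 3, there were 51 to 175 higher and 79 to 112 lower. The split at 0.1% left no mature member at P38, so its 131 higher and 127 lower also come from 2 libraries. At the main split without P38 there were 51 and 79. Against Krt14/Krt5 non-members 2451 were higher from 1 UMI and 645 lower without cells of 4000 or more genes, and without 1 library each 849 to 1192 were higher and 1389 to 1615 lower.

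In early members at 6 months over P38, 399 genes were higher and 306 lower from 50 UMIs, and 1364 lower by mean per-cell CPM. At 12 months over P38, 1194 were higher and 2235 lower by mean per-cell CPM, and 175 and 374 from 50 UMIs. At 12 months over 6 months, 428 were higher and 672 lower by mean per-cell CPM, and 42 and 161 from 50 UMIs. In mature members this pair gave 292 higher by mean per-cell CPM, 52 higher and 60 lower from 50 UMIs, and 59 higher and 123 lower without hair genes. Deep members gave 262 lower at 12 months over 6 months without the 2 cells rich in Elovl4. By mean per-cell CPM the early ratios at 12 months over 6 months reversed for Elovl4 (0.39) and Cyp2g1 (0.47). The Scd1 ratio of mature over early members at 6 months reversed to 0.59 without the deep members with hair transcripts and the 2 cells rich in Elovl4, and to 0.64 in deep members without these 2 cells. Both settings were chosen after the data were seen. Depth limits the classes of all members at 6 months, where 85 of 104 held fewer than 2000 UMIs, more than those of the 14 deep members.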
